A study of Arabidopsis thaliana with 12 samples.

Results

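Rosette leaves exposed to high formaldehyde were compared with leaves exposed to low formaldehyde, in 6 of the 12 Arabidopsis thaliana plants of the series. The plants were chosen by their titles: 3 high plants, kept at 14 to 16 ppm, and 3 low plants, kept at 1 to 2 ppm, each measured on an array of its own. Both groups spent 150 min in a ventilated 10 L chamber in the light. The other 6 plants serve as background below: 3 air plants, in the same chamber under 0.04 ppm, and 3 outside plants, never put in the chamber and under 0.08 ppm. All 12 were 7 weeks old, of the Columbia ecotype and of the AB genotype, and had first spent 72 h under continuous light (24 °C). AB plants carry rmpA, for 3-hexulose-6-phosphate synthase, and rmpB, for 6-phospho-3-hexuloisomerase, from the bacterium Mycobacterium gastri MB19. Both are expressed in chloroplasts, and per the labels these plants assimilate and tolerate formaldehyde. Plants without the transgenes were not analysed here, so every difference below is one between plants that carry them. The sources used here give neither the promoters behind the transgenes nor whether AB is a single line. Plants of the same condition were treated together in the chamber. Run and concentration therefore cannot be told apart, and each p-value measures the spread between plants.

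Formaldehyde is a reactive aldehyde that binds to proteins and nucleic acids. Plant cells oxidise it with the help of glutathione to formate, which formate dehydrogenase turns into carbon dioxide, or pass its carbon to tetrahydrofolate. Chaperones of the heat shock response hold and refold proteins that have lost their shape, and UDP-glycosyltransferases and glutathione transferases couple foreign or reactive chemicals to sugar or glutathione. In the AB plants the added bacterial enzymes join formaldehyde to a pentose phosphate of the chloroplast. These statements are background and not results of the arrays.

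The arrays gave a log2 signal for each of 22746 probe sets, and 2.11 was the lowest signal an array could show. Where a group lies within 0.5 of that value, a fold change is given as "at least". Array medians lay between 5.68 and 5.82. High plants correlated with each other at r = 0.992 to 0.997 over probe sets, low plants at 0.995 to 0.997, and high with low plants at 0.936 to 0.949. Probe sets are not replicates, and these r are descriptions. The leaf genes LHCB4.1, LHCB4.2 (antenna proteins of photosystem II) and RCA (the activator of Rubisco) read 14.64 or more in all 6 plants and did not pass the test described below, with differences of -0.08, -0.19 and -0.02. The root markers PYK10 and AT5G48940 lay at the lowest value in all 6. No flower, vascular or epidermis marker of the lists was paired with a probe set here. Among the control probe sets that compare the 3' and 5' ends of a transcript, the older GAPDH pair had 1.54 ± 0.03 in high and 1.97 ± 0.03 in low plants (3' minus 5' log2 signal, SD, n = 3). The newer GAPDH pair moved the other way, with 0.23 ± 0.05 in high and -0.07 ± 0.07 in low plants. Ubiquitin, by its newer pair, had -0.48 ± 0.04 in high and -0.30 ± 0.04 in low plants, and actin, by its older pair, 5.46 ± 0.02 in high and 5.31 ± 0.03 in low plants, with no overlap in these 4 pairs. The plants overlapped for the older ubiquitin pair (0.59 ± 0.09 in high and 0.72 ± 0.11 in low plants) and the newer actin pair (0.89 ± 0.15 in high and 0.79 ± 0.13 in low plants). These differences between transcript ends run alongside every comparison of high with low plants below, and their part in the results was not tested.

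A difference was called at an adjusted p under 0.05 in a limma model of all 12 arrays. Of the 22746 probe sets 7687 were called (33.8%), 3515 higher in high plants (15.5%) and 4172 lower (18.3%). At least 2-fold differences were about evenly split, with 2090 probe sets higher (9.19%) and 2003 lower (8.81%). The plants of the groups did not overlap in 9915 probe sets (43.6%). Large differences were less even: at a log2 difference of at least 3, 438 were higher and 173 lower, at 4 it was 243 and 53, and at 5 it was 128 and 10. The probe sets lower by at least 6 were that of ORA47 and 1 paired with no gene (265724_at), while 69 were higher by that much. The level of the transcripts differed as well. Called rises had a median signal of 8.51 in high and 7.09 in low plants, and called falls a median of 7.54 in high and 8.75 in low plants. Of the 576 probe sets with a mean signal above 12, 14.4% were higher in high plants and 39.1% lower. Of the 2373 with a mean between 4 and 6, 21.5% were higher and 22.3% lower. In bulk leaf RNA, fewer cells of a type and less RNA per cell cannot be told apart, which holds for every fall below. Rises and falls below compare high with low plants, and do not give the change from plants without added formaldehyde. For gene groups counted below, the shares of all probe sets to compare with are 15.5% higher and 18.3% lower. These include 8073 probe sets with a mean signal up to 2.61, of which 0.768% were higher and 0.26% lower. Of the 4210 with a mean between 8 and 10, 26.6% were higher and 31.4% lower. For groups with few members near the lowest value, the shares of all probe sets are therefore low, and an excess over them can reflect level alone.

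**Figure D1:**
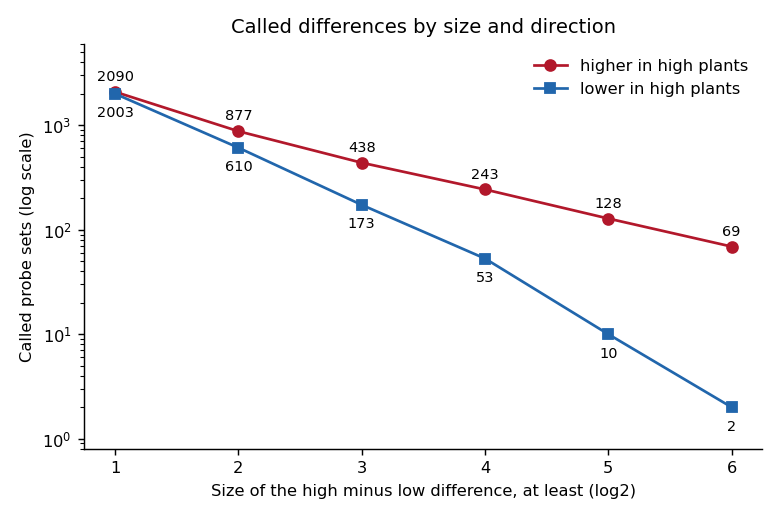
Number of called probe sets (log scale) by the smallest log2 difference counted, for those higher (circles) and those lower (squares) in high than in low plants. The curves start together, at 2090 and 2003 for a difference of 1, and part with size, at 128 and 10 for a difference of 5.

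A number of rises started at the lowest value. In 61 probe sets all 3 low plants lay within 0.5 of the lowest value while all 3 high plants read 6 or more, and in 13 of them the high plants read 10 or more. The reverse, at the lowest value in all high plants and at 6 or more in all low plants, was seen in 5 probe sets, and 0 of these reached 10 in the low plants. The 5 are AT4G25780 and AT1G50280, named after their values were seen, and 3 probe sets paired with no gene (250167_at, 263953_at and 267614_at). AT1G50280 read 2.37, 2.37 and 2.42 in high plants, against 6.02, 6.36 and 6.17 in low plants. The low signal in all 3 high plants and the lack of overlap follow from how the 5 were picked.

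Among probe sets paired with 1 gene, the 3 largest differences were rises of genes known by locus alone. Of the probe sets paired with no gene, 252515_at, 250351_at and 262911_s_at rose by slightly more (11.26, 11.22 and 11.03), and all differences of named genes below leave such probe sets out. AT5G51440, placed by its locus among genes of mitochondrial stress, read 13.69, 13.59 and 13.61 in high plants, against 2.24, 2.16 and 3.45 in low plants. High plants differed by 0.1 at most, and low plant 3 stood above the others of its group without coming near them. The log2 difference was 11.02 ± 0.30 (SE), a 2070-fold rise (adjusted p = 3.61e-08). AT2G29500 read 13.30, 13.56 and 13.02 in high plants, against 2.90, 3.49 and 3.26 in low plants, and was 10.08 ± 0.20 higher (adjusted p = 4.96e-09). AT1G53540 stood at 12.02, 12.75 and 12.97 in high plants and at the lowest value in all 9 others, a rise of at least 1418-fold. No symbol for these 3 loci is held by the annotation used here.

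The list of heat shock regulators and chaperones had 5 measured members of 33 listed. Of these 4 rose and Hop1 did not pass, with a median log2 difference of 4.32, against a median of 0 over all probe sets. Hop3, a co-chaperone that links HSP70 to HSP90, read 10.35, 10.66 and 11.45 in high plants, against 2.60, 2.60 and 2.38 in low plants. It was near the lowest value in every low plant and strong in every high plant, at least 314-fold higher (adjusted p = 4.77e-08). Its relatives had smaller differences: Hop2 was 6.10-fold higher (11.27, 11.08 and 11.15 in high plants, against 8.79, 8.60 and 8.29 in low plants), and Hop1 had means of 8.98 ± 0.10 in high and 9.03 ± 0.16 in low plants (SD, n = 3). AT5G48570, an immunophilin also named ROF2 and FKBP65, read 13.60, 13.39 and 13.87 in high plants, against 5.60, 5.47 and 5.11 in low plants, 299-fold higher. HSA32, a heat shock protein needed in Arabidopsis to keep acquired heat tolerance, was at least 20.0-fold higher (6.01, 6.40 and 7.14 in high plants, against 2.20, 2.22 and 2.16 in low plants).

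Other chaperones rose as well. Fes1A, a partner of cytosolic HSP70, read 12.79, 12.90 and 12.75 in high plants, against 6.82, 6.75 and 6.86 in low plants, with a difference of 6.00 ± 0.16 (adjusted p = 3.17e-08). Hsp70-2 was 4.15 ± 0.23 higher, at 12.19, 12.10 and 11.99 in high plants, against 8.26, 7.61 and 7.94 in low plants. ATHSP22.0, a small heat shock protein, was at least 28.4-fold higher, at 5.77, 7.15 and 7.89 in high plants, against 2.11 in each low plant. For all 3 genes every high plant stood above every low plant, which for Fes1A was a condition of naming it by size. Chaperonins of the Cpn60 family, which fold proteins inside chloroplasts, were mixed. Cpn60beta4 fell by 1.81 on the log2 scale (7.03, 6.81 and 7.38 in high plants, against 8.74, 9.03 and 8.87 in low plants), Cpn60beta3 had 0.19 (adjusted p = 0.817) and Cpn60beta2 was 1.18 ± 0.39 higher (adjusted p = 0.0435, up to 0.142 with an array left out). ATJ1, a DnaJ protein, was 0.80 higher (adjusted p = 0.0301, up to 0.101 with an array left out).

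**Figure D2:**
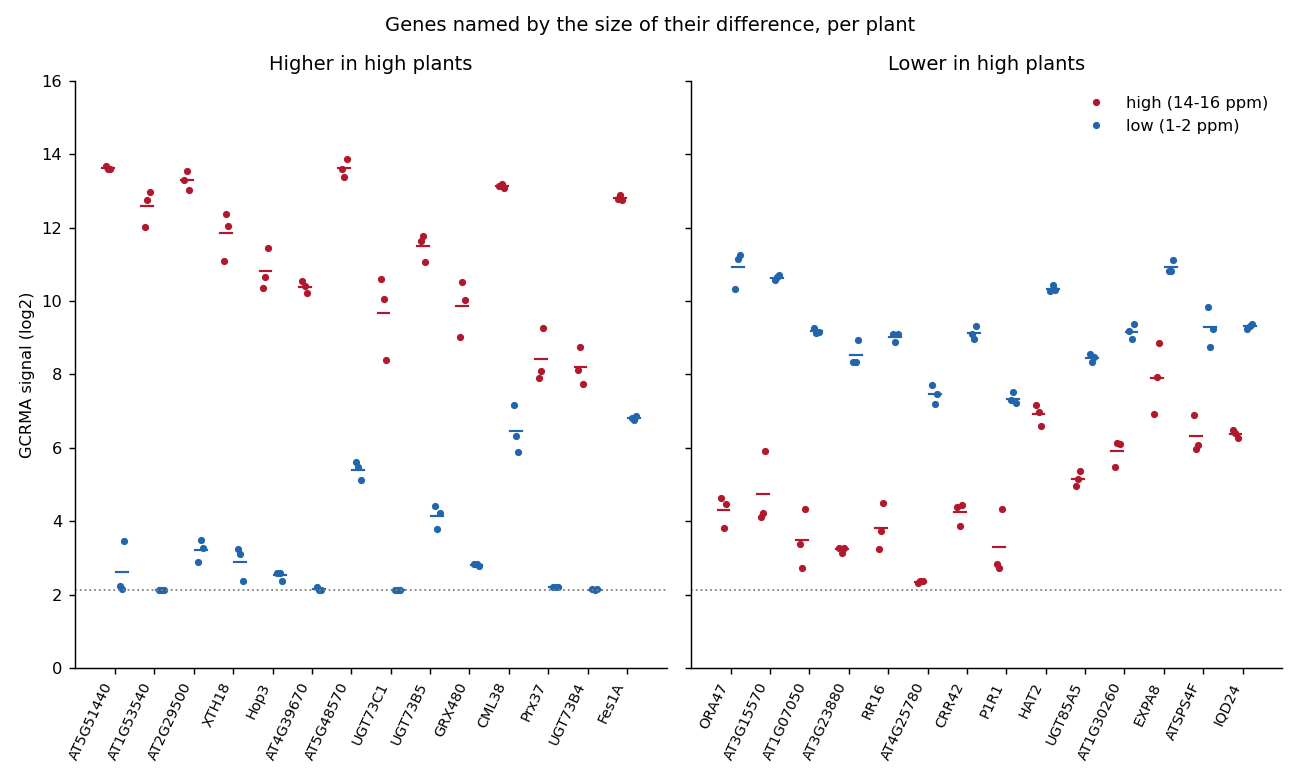
Log2 signal in each high plant (red, left of each pair) and low plant (blue, right) for the 14 genes per direction named by size, of which at most 4 lack a symbol and a description (others without one differ by more than some shown), with a bar at each group mean and a dotted line at the lowest value, 2.11. In the left panel the high plants of all 14 genes read 7.73 or more and lie above their low plants. In the right panel the high plants of all 14 genes lie under their low plants. Lack of overlap was part of the rule that named these genes.

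The endoplasmic reticulum, where secreted proteins fold, had 5 measured genes of 19 listed: 2 rose, 2 fell and ATERDJ3B did not pass (median -0.06). The sensors rose. BZIP60, a transcription factor that starts the unfolded protein response of this compartment, read 12.73, 12.86 and 12.40 in high plants, against 9.25, 9.36 and 9.59 in low plants, 9.60-fold higher (adjusted p = 1.24e-06). BZIP28, a membrane-bound factor of the same response, read 10.19, 10.20 and 10.18 in high plants, against 7.82, 7.80 and 7.93 in low plants, 5.06-fold higher (adjusted p = 8.75e-08). The other 3 measured genes of this list did not follow. CRT1b, a calreticulin that binds unfolded glycoproteins, fell by 0.99 ± 0.14 (9.16, 8.83 and 9.21 in high plants, against 9.97, 10.00 and 10.19 in low plants), and AT5G07340 fell by 0.89. ATERDJ3B, a DnaJ protein of this compartment, had -0.06 ± 0.28, with overlapping groups. Over the whole bZIP family 7 of 22 measured genes rose and 2 fell, among them bZIP52 at 8.25-fold higher (5.95, 6.28 and 6.63 in high plants, against 3.18, 3.06 and 3.49 in low plants) and BZIP53 at 3.45-fold higher (12.59, 12.74 and 12.24 against 10.86, 10.70 and 10.65). The falls were AT4G38900, by 0.64, and BZIP34, by 1.46 to near the lowest value (adjusted p = 0.0207, up to 0.0768 with an array left out).

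Mitochondrial stress genes rose without exception among the 4 measured of 13 listed (median 7.36). Beside AT5G51440 above, AT2G21640 read 12.43, 12.31 and 10.93 in high plants, against 4.82, 4.72 and 5.28 in low plants (6.95 ± 0.49, adjusted p = 9.41e-06). AT2G04050 read 10.79, 10.32 and 8.57 in high plants, against 2.11, 2.12 and 2.13 in low plants, at least 219-fold higher. High plant 3 was the lowest of its group for both, and far above each low plant. NDB2, an external NADH dehydrogenase of the respiratory chain, read 11.17, 11.05 and 10.77 in high plants, against 7.25, 6.57 and 7.02 in low plants, 16.6-fold higher.

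Respiratory genes of the nucleus rose in part. Of 16 measured genes of the tricarboxylic acid cycle, cytochrome c and external NADH dehydrogenases, 7 rose, 0 fell and 9 did not pass, with a median of 0.09. The share that rose was 43.8%, beside 15.5% of all probe sets, and NDB2, given above, is among the 7. CYTC-2, a cytochrome c, was 8.47-fold higher (11.81, 11.95 and 11.97 in high plants, against 9.05, 8.38 and 9.06 in low plants), while its sister CYTC-1, already abundant, was 1.72-fold higher (12.47, 12.45 and 12.45 against 11.58, 11.61 and 11.83). In high plants both thus stood near 12. IDH-V, a subunit of isocitrate dehydrogenase, was 1.97-fold higher (11.54, 11.57 and 11.49 in high plants, against 10.32, 10.52 and 10.83 in low plants).

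In 3 detoxification families single members had steep rises or falls, while the shares of members called higher were near or under that of all probe sets. Of 51 measured UDP-glycosyltransferases 8 rose (15.7%, near the 15.5% of all probe sets), 11 fell (21.6%, beside 18.3%) and 32 did not pass. UGT73B5 read 11.64, 11.78 and 11.06 in high plants, against 4.40, 3.80 and 4.21 in low plants, 164-fold higher (adjusted p = 2.35e-07). UGT73B4, its neighbour in the family, read 8.13, 8.76 and 7.73 in high plants, against 2.14, 2.13 and 2.14 in low plants, at least 67.3-fold higher. UGT73C1 was at least 190-fold higher, at 10.59, 10.05 and 8.40 in high plants and at 2.11 in each low plant. For all 3 genes each high plant stood above each low plant by more than 5 on the log2 scale. UGT87A2 was 11.7-fold higher, at 11.70, 11.61 and 11.16 in high plants, against 8.15, 7.64 and 8.06 in low plants. The falls were smaller: UGT85A5 read 4.95, 5.15 and 5.37 in high plants, against 8.55, 8.35 and 8.48 in low plants (9.88-fold lower), and UGT85A4 was 4.88-fold lower, UGT71B1 4.90-fold lower and UGT76C1, which glucosylates cytokinins, 2.94-fold lower.

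Of 14 measured glutathione transferases 2 were higher and 2 lower (14.3% each, beside 15.5% and 18.3% of all probe sets). GSTU25 was at least 41.0-fold higher (7.69, 7.43 and 7.28 in high plants, against 2.11 in each low plant, adjusted p = 1.03e-09) and GSTU22 at least 3.07-fold higher (4.12, 4.42 and 2.64 against 2.11). GSTU27 was 3.35-fold lower (7.84, 7.52 and 7.51 in high plants, against 9.64, 9.19 and 9.26 in low plants), and GSTU20 fell by 1.22 (adjusted p = 0.0452, up to 0.154 with an array left out). Cytochromes P450, which oxidise many small molecules, had 2 of 24 higher and 4 lower (8.33% and 16.7%, under the shares of all probe sets), with CYP71B28 5.19-fold lower (6.95, 7.04 and 7.45 in high plants, against 9.41, 9.42 and 9.74 in low plants).

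Enzymes that act on aldehydes leaned down. Of 8 measured aldehyde dehydrogenases 1 rose and 4 fell (median -0.41). ALDH7B4, the member that rose, read 10.45, 10.74 and 10.52 in high plants, against 9.53, 9.46 and 9.62 in low plants, 2.05-fold higher (adjusted p = 0.0026). Its outside mean was 10.41, close to the high plants. ALDH3F1 was 3.21-fold lower, at 7.27, 7.08 and 7.82 in high plants, against 9.03, 9.25 and 8.94 in low plants. ALDH10A9 fell by 0.48, and ALDH2C4 and ALDH6B2 fell by 0.61 and 0.42, calls that were lost when an array was left out (adjusted p up to 0.0751 and 0.0805). FDH, the formate dehydrogenase that ends the route from formaldehyde to carbon dioxide, read 11.64, 12.11 and 11.98 in high plants, against 12.63, 12.22 and 12.21 in low plants. All 3 high plants lay under the low plants, but by as little as 0.1, and the difference of -0.44 ± 0.27 did not pass (adjusted p = 0.296). Of 8 loci listed for formaldehyde and formate enzymes, FDH and ALDH7B4 were the 2 that had a probe set.

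The folate and glycine cleavage list, the other route for single carbon units, had 5 measured genes of 22: 0 rose, 3 fell and 2 did not pass (median -0.32). AT1G11860 was 2.26-fold lower, at 11.86, 11.57 and 12.53 in high plants, against 13.05, 13.13 and 13.31 in low plants (adjusted p = 0.00304). AT1G32470 fell by 0.99 and AT3G12290 by 0.30, with adjusted p of up to 0.0695 and 0.0518 when an array was left out. AT2G35120 had -0.32 (adjusted p = 0.49) and AT2G38660 had -0.21 (adjusted p = 0.335). In the related photorespiration list HPR, hydroxypyruvate reductase, and AT1G80380 were the measured genes. They fell by 0.49 and 0.52, and each call was lost when an array was left out (adjusted p up to 0.0932 and 0.14).

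Oxidative and cell wall enzymes held some of the steepest single rises. GRX480, a glutaredoxin, read 9.01, 10.53 and 10.04 in high plants, against 2.82, 2.84 and 2.77 in low plants, 133-fold higher (adjusted p = 8.17e-07). The other glutaredoxins measured, GRXC1, GRXC2, ROXY1 and ROXY2, did not pass, with differences from -0.17 to 0.36. XTH18, which cuts and rejoins xyloglucan of the cell wall, read 11.10, 12.38 and 12.06 in high plants, against 3.23, 3.11 and 2.36 in low plants, 494-fold higher. XTH19 was at least 6.52-fold higher, but read 3.13 in high plant 1, against 6.14 and 6.11 in the others, and its call was lost without some arrays (adjusted p up to 0.0682). XTH32 fell by 1.43 (up to 0.0733). Of 10 measured xyloglucan enzymes 2 rose, 1 fell and 7 did not pass (20% and 10% called, beside 15.5% and 18.3% of all probe sets). Prx37, a peroxidase of the wall, was at least 74.4-fold higher (7.89, 8.09 and 9.26 in high plants, against 2.20 in each low plant). Among 7 subtilases, which are secreted proteases, SBT3.3 was 38.4-fold higher (8.70, 8.71 and 7.97 in high plants, against 2.55, 3.77 and 3.27 in low plants) and SBT3.5 was 11.7-fold higher (8.95, 8.77 and 8.09 against 4.90, 5.16 and 5.13). SBT1.3 fell by 2.65 (adjusted p = 0.0285, up to 0.10 with an array left out), and the other 4 did not pass.

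Calcium binding proteins were among the groups that rose. Of 8 measured calmodulin-like proteins 5 rose (62.5%, beside 15.5% of all probe sets), 0 fell and 3 did not pass (median 1.18). CML38 read 13.14, 13.18 and 13.08 in high plants, against 7.16, 6.31 and 5.88 in low plants, 103-fold higher (adjusted p = 3.75e-06). CML37 was at least 37.7-fold higher, at 6.43, 8.05 and 7.55 in high plants and 2.11 in each low plant. CML38 thus stood well above the lowest value at low formaldehyde, while CML37 stood at it. CML23 was 5.71-fold higher (8.18, 9.15 and 8.77 in high plants, against 7.02, 5.89 and 5.64 in low plants), and CML42 was 2.18-fold higher. IQ-domain proteins, which bind calmodulin, went the other way. Of 15 measured 1 rose (6.67%), 9 fell (60%, beside 18.3% of all probe sets) and 5 did not pass (median -0.78). IQD24 was 7.59-fold lower (6.49, 6.40 and 6.28 in high plants, against 9.25, 9.32 and 9.37 in low plants), IQD31 fell by 0.99, IQD28 by 1.38 and IQD30 by 0.95. IQD23 was the exception, 5.05-fold higher (7.27, 7.32 and 7.39 in high plants, against 4.68, 5.13 and 5.17 in low plants).

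The list of rapid touch and wound genes had 9 measured members of 39: 6 rose (66.7%), 0 fell and 3 did not pass (median 2.1). CML37 and CML38, given above, are among its rises, so the list and the calmodulin-like group are not independent. The U-box ubiquitin ligases, some of which are in both lists, had 5 of 9 higher and 1 lower (55.6% and 11.1%, beside 15.5% and 18.3% of all probe sets). PUB24 read 8.79, 8.98 and 8.67 in high plants, against 6.49, 6.33 and 7.33 in low plants, 4.28-fold higher (adjusted p = 5.29e-04). PUB23, which with PUB22 and PUB24 damps immune responses, read 8.10, 8.91 and 9.01 in high plants, against 5.79, 5.29 and 6.24 in low plants, 7.46-fold higher. In both genes the groups were parted by more than 1. PUB26 was the fall, 4.44-fold lower (5.51, 5.50 and 6.33 in high plants, against 7.67, 7.92 and 8.21 in low plants). Its means were 6.48 in air and 6.36 in outside plants. High plants did not differ from either by the limma test (adjusted p = 0.206 and 0.301). Proteases that remove ubiquitin rose by less than 2-fold, 5 of 12 measured (41.7%) and 0 lower. UBP23 was 1.90-fold higher (9.84, 9.71 and 9.60 in high plants, against 8.70, 8.99 and 8.67 in low plants), UBP24 1.77-fold, UBP25 1.58-fold and UBP19 1.56-fold higher. Of 12 ubiquitin-conjugating enzymes only UBC16 was called (8.33%, under the share of all probe sets). It was 2.64-fold higher (8.94, 9.13 and 8.91 in high plants, against 7.55, 7.54 and 7.68 in low plants).

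Membrane traffic genes rose more often than they fell. The group of vacuolar sorting and exocyst proteins also holds others of the secretory path, such as SEC22. Of its 19 measured members 9 rose (47.4%, beside 15.5% of all probe sets), 2 fell and 8 did not pass. SEC1B read 7.69, 7.94 and 7.47 in high plants, against 3.62, 3.39 and 3.66 in low plants, 17.7-fold higher (adjusted p = 1.15e-05). VPS60.1, VPS20.1 and VPS2.1 belong to the ESCRT machinery, which buds membrane proteins into endosomes. VPS60.1 was 5.77-fold higher (11.06, 11.04 and 10.70 in high plants, against 8.49, 8.40 and 8.32 in low plants), VPS2.1 was 3.97-fold higher (11.51, 11.35 and 11.83 against 9.98, 9.46 and 9.28) and VPS20.1 was 4.49-fold higher. SEC22, a fusion protein of the early secretory path, was 2.36-fold higher. VPS9B fell by 1.44, and VPS2.2, a relative of VPS2.1, fell by 1.01 (adjusted p = 0.0156, 0.0604 without low plant 3). Among 9 PRA1 proteins, which sit on vesicle membranes, 4 rose (44.4%) and 0 fell, with PRA1.B4 8.00-fold higher (10.30, 10.59 and 10.48 in high plants, against 7.12, 7.42 and 7.82 in low plants). Of 11 measured autophagy genes 3 rose and 2 fell (27.3% and 18.2%, beside 15.5% and 18.3% of all probe sets). ATG8H was 6.00-fold higher (9.69, 9.96 and 9.74 in high plants, against 7.23, 7.01 and 7.39 in low plants), while ATG8F fell by 0.71.

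**Figure D3:**
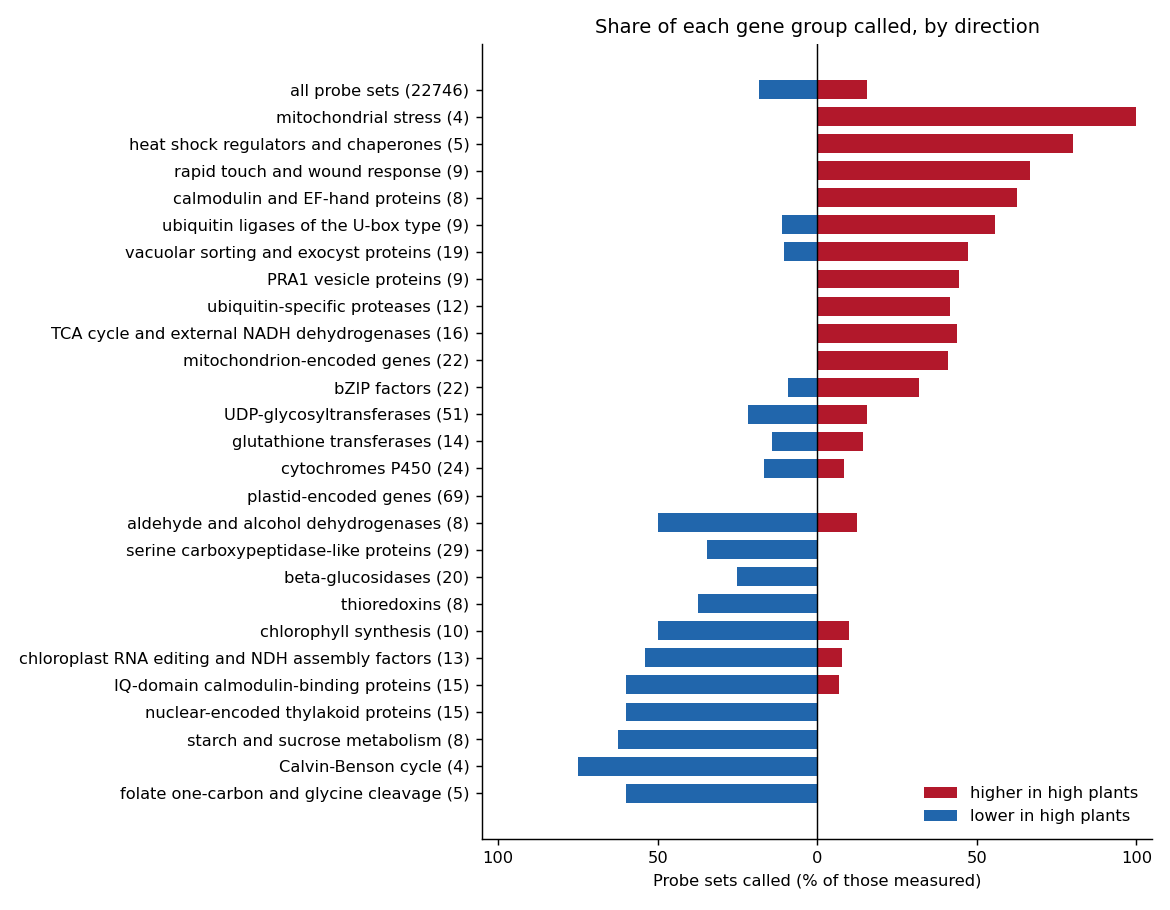
Percentage of the measured probe sets of each gene group called higher (red, to the right) or lower (blue, to the left) in high than in low plants, with the number measured in brackets and all 22746 probe sets in the top row (15.5% higher, 18.3% lower). Among the groups shown, chaperone, calmodulin-like, ubiquitin, vesicle and respiratory groups extend to the right. Carbon groups and the groups of nuclear genes for the chloroplast extend to the left. Of the 69 plastid-encoded genes 0 were called, and they extend to neither side. The IQ-domain calmodulin-binding proteins extend to the left (60% lower, 6.67% higher), and the UDP-glycosyltransferases to both sides. Related groups did not all follow these directions. Of the ubiquitin-conjugating enzymes 8.33% were higher, under the share of all probe sets. The RING/U-box superfamily had 16.7% each way and ER protein folding 40% each way. The group of chaperonins had 25% each way, counting CPNIFS, which is a cysteine desulfurase and not a chaperonin.

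The 5 further rises named by their signal in high plants, all with a log2 difference of at least 2, were known by locus alone. AT1G19020 read 14.62, 14.78 and 14.63 in high plants, against 9.80, 9.49 and 9.93 in low plants, 30.6-fold higher. AT2G41730 was 132-fold higher (14.37, 14.33 and 13.91 against 6.52, 6.72 and 8.24). AT4G01870 was 64.2-fold higher and AT5G43450 40.1-fold higher. AT3G09440 was abundant in both groups, at 14.31, 14.40 and 14.46 in high plants, against 11.42, 11.50 and 11.61 in low plants, and 7.37-fold higher. Lack of overlap between the groups was part of the rule that named these 5. AT4G39670, named by the size of its difference, read 10.54, 10.41 and 10.22 in high plants, against 2.21, 2.11 and 2.11 in low plants, at least 304-fold higher.

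For a number of genes the low plants already stood between the plants without added formaldehyde and the high plants. STZ, a zinc finger repressor, read 12.75, 13.16 and 13.04 in high plants, against 10.18, 10.22 and 10.57 in low plants, 6.34-fold higher (adjusted p = 0.00422), with means of 6.78 ± 1.11 in air and 3.58 ± 0.76 in outside plants (SD, n = 3). TET8, a tetraspanin of the cell membrane, read 13.03, 13.13 and 13.01 in high plants, against 10.81, 10.76 and 10.79 in low plants, with means of 9.42 ± 0.47 in air and 9.33 ± 0.25 in outside plants. Both passed the test for high against low, low against air (adjusted p = 0.0249 and 0.0259) and low against outside (3.35e-04 and 0.00512). PUB22 and UGT73B1, chosen after their values were seen, were also higher in high plants, at 8.02 ± 0.13 and 9.43 ± 0.06, against 6.58 ± 0.48 and 8.11 ± 0.30 in low plants. Their air and outside values are not given here. The contrasts share the low plants, so their calls are not independent. WRKY53 and WRKY22, transcription factors of defence that were also chosen after their values were seen, did not differ detectably between the concentrations. WRKY53 read 9.11, 8.97 and 9.20 in high plants, against 9.59, 9.36 and 10.37 in low plants (-0.68 ± 0.41, adjusted p = 0.275), with an air mean of 6.87 ± 0.72. WRKY22 had 0.44 ± 0.58 (adjusted p = 0.722), with 7.83 ± 0.73 in high and 7.39 ± 0.27 in low plants, above 3.93 ± 1.21 in air. Of 7 measured WRKY genes WRKY6, active in senescence and defence, was the rise (9.06, 9.01 and 8.90 in high plants, against 6.01, 6.19 and 6.86 in low plants, 6.23-fold) and WRKY47 the fall (3.00, 3.56 and 3.78 against 5.54, 5.14 and 5.46).

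Among the falls of genes with a symbol were some of hormone response and growth. RR16, a response regulator of cytokinin signalling, read 3.25, 3.73 and 4.49 in high plants, against 9.09, 8.89 and 9.10 in low plants, 36.8-fold lower (adjusted p = 6.8e-05). In the cytokinin list 3 of 4 measured genes of 15 fell: RR16, UGT76C1 and UGT76C2, the last at 6.05, 5.98 and 6.03 in high plants, against 7.28, 7.58 and 7.59 in low plants. The other, ARR15, had -0.99 (adjusted p = 0.0664) near the lowest value. For UGT76C2 the air mean, 5.85, was near the high plants, and the outside mean was 7.86. HAT2, a homeodomain factor induced by auxin, read 7.18, 6.99 and 6.60 in high plants, against 10.28, 10.43 and 10.29 in low plants, 10.6-fold lower. EXPA8, an expansin that loosens the cell wall, was 8.07-fold lower, with high plants spread over 6.93, 7.93 and 8.86, against 10.83, 10.81 and 11.12 in low plants. Of 19 measured expansins it was the single fall, EXLA2 was the single rise (1.62) and 17 did not pass. Both shares, 5.26%, lay under those of all probe sets. Of 7 tubulins, the subunits of microtubules, 2 fell (28.6%, beside 18.3% of all probe sets). TUB5 fell by 1.75 (10.31, 10.04 and 10.32 in high plants, against 12.12, 11.94 and 11.86 in low plants) and TUB6 by 0.69. Of 7 histone genes 3 fell, led by the linker histone gene HON4 at 3.54-fold lower (9.36, 9.05 and 9.49 against 11.01, 11.06 and 11.29).

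Known only by locus, AT3G15570 read 4.11, 4.21 and 5.91 in high plants, against 10.57, 10.66 and 10.70 in low plants, 59.8-fold lower, and AT1G07050 read 3.39, 2.73 and 4.34 against 9.28, 9.12 and 9.17, 52.2-fold lower. AT3G23880 was 39.7-fold lower and AT4G25780 at least 34.6-fold lower. P1R1 was 16.5-fold lower (2.83, 2.72 and 4.34 in high plants, against 7.30, 7.51 and 7.21 in low plants), and AT1G30260, also named AGL79, was 9.61-fold lower. High plant 3 had the highest signal of its group for AT3G15570, AT1G07050, RR16, P1R1 and EXPA8. That it lay under every low plant for each was a condition of naming these genes by size. Among abundant transcripts, AT1G23390 (8.94, 8.78 and 8.51 in high plants, against 13.05, 13.06 and 13.10 in low plants) was 20.1-fold lower and AT3G62550 16.6-fold lower. CCL was 5.53-fold lower, AT1G56220 4.83-fold lower and AT5G19120 4.02-fold lower. The high plants of AT5G19120 had a mean of 11.64, near the means of 11.48 in air and 11.80 in outside plants, and its low plants stood above these. For AT1G23390 and AT5G19120 the air plants were spread, at 12.23, 9.85 and 10.58 and at 12.94, 10.72 and 10.78, so their low plants did not differ from air by the test (adjusted p = 0.0723 and 0.0772).

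In the starch and sucrose list 0 genes rose: 5 of 8 measured (39 listed) were lower and 3 did not pass (median -1.40). ATSPS4F, a sucrose phosphate synthase, read 6.90, 5.97 and 6.08 in high plants, against 9.84, 8.76 and 9.25 in low plants, 7.82-fold lower (adjusted p = 0.00157). PWD, which phosphorylates starch before its breakdown, was 2.79-fold lower (9.37, 9.37 and 8.97 against 10.70, 10.69 and 10.76), and DPE1, which rearranges the sugar chains of starch in the chloroplast, was 2.70-fold lower. APL3, a subunit of the enzyme that opens starch synthesis, fell by 1.37 (adjusted p = 0.0359). SWEET1, a sugar transporter outside the list, read 5.21, 5.37 and 5.82 in high plants, against 6.73, 7.46 and 7.35 in low plants, 3.28-fold lower. Of 16 measured members of its family 1 rose and 2 fell (6.25% and 12.5%, under the shares of all probe sets). SWEET10 was at least 3.08-fold higher (4.12, 3.95 and 3.14 in high plants, against 2.11, 2.11 and 2.12 in low plants), and SWEET17 fell by 0.92 (adjusted p = 0.042, up to 0.135 with an array left out). Of 20 beta-glucosidases 5 were lower (25%, near the 18.3% of all probe sets) and 0 higher, and of 29 serine carboxypeptidase-like proteins 10 were lower (34.5%) and 0 higher. BGLU16 was 2.91-fold lower (8.28, 8.32 and 8.21 in high plants, against 9.90, 9.83 and 9.69 in low plants), and scpl26 and scpl42 were 2.90-fold and 2.59-fold lower.

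Transcripts of carbon fixation in the chloroplast were lower at several steps. In the Calvin-Benson list 3 of 4 measured genes of 23 fell (median -0.93). PRK, the phosphoribulokinase, read 12.78, 12.82 and 12.77 in high plants, against 13.83, 13.73 and 13.77 in low plants, a gap of about 1 with almost no spread inside either group (adjusted p = 1.27e-05). SBPASE, a phosphatase of the cycle, read 12.44, 12.24 and 12.94 in high plants, against 13.43, 13.37 and 13.46 in low plants, and AT1G56190 was 2.09-fold lower. RCA, reported above, was the member that did not pass. Genes of chlorophyll synthesis had 1 of 10 higher, 5 lower and 4 that did not pass (median -0.73). PORB, which reduces protochlorophyllide in the light, read 11.71, 11.44 and 12.06 in high plants, against 13.15, 13.51 and 13.43 in low plants, 3.09-fold lower (adjusted p = 1.67e-04). CHLI2, a subunit of magnesium chelatase, was 3.27-fold lower (8.64, 8.17 and 8.87 against 10.03, 10.43 and 10.35), and CHLM, which methylates the product of the chelatase, was 2.44-fold lower. HEME1, of an earlier step, fell by 1.18. HEMA2, a glutamyl-tRNA reductase that opens tetrapyrrole synthesis, was the exception at 3.39-fold higher (8.20, 8.25 and 8.53 in high plants, against 6.44, 6.61 and 6.66 in low plants).

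Nuclear genes for thylakoid proteins fell or did not pass. Of 15 measured, 9 fell (60%, beside 18.3% of all probe sets), 6 did not pass and 0 rose (median -0.37), and all 15 differences were negative. LIL3:1, which anchors chlorophyll synthesis in the membrane, read 10.93, 10.41 and 10.94 in high plants, against 12.04, 12.32 and 12.15 in low plants, 2.66-fold lower. NdhL, a subunit of the chloroplast NADH dehydrogenase-like complex, was 2.58-fold lower (9.47, 9.35 and 10.09 against 10.82, 10.97 and 11.23), and NdhS was 2.01-fold lower. Abundant members moved little, with PSBW falling by 0.34 (13.67, 13.66 and 13.59 in high plants, against 14.03, 14.02 and 13.90 in low plants). Factors that edit chloroplast RNA or assemble the NADH dehydrogenase-like complex held the largest fall of these chloroplast groups, with 7 of 13 lower, 1 higher and 5 that did not pass (median -0.91). CRR42, an assembly factor, read 4.39, 3.88 and 4.45 in high plants, against 9.10, 8.98 and 9.33 in low plants, 29.8-fold lower (adjusted p = 7.32e-07). CRR21, an editing factor for an NDH transcript, was 5.19-fold lower (4.63, 4.93 and 4.95 against 7.55, 7.25 and 6.84), CRR41 was 3.73-fold lower and OTP84 2.56-fold lower. OTP43, the member that rose (1.68-fold), acts in mitochondria, where it splices a transcript of the NADH dehydrogenase.

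Transcripts made inside the organelles were described apart, and their difference from the nuclear genes was not tested. Of 69 plastid-encoded genes, each with its own probe set, 0 were called by limma in either direction, although 59 had a negative difference and the median was -0.28. At an unadjusted p under 0.05 there were 5, of which 3 were lower in high plants. Their median signal was 11.91, 11.91 and 11.01 in high plants, against 12.14, 12.01 and 11.82 in low plants, so that high plant 3 lay apart from the rest of its group. The ends of the range were psaA, of photosystem I, at -0.73 (adjusted p = 0.377) and petD, of the cytochrome complex, at 0.86 (adjusted p = 0.0919). The large subunit of Rubisco, rbcL, had -0.66 (adjusted p = 0.148). Mitochondrion-encoded transcripts were higher in part: 9 of 22 probe sets, which stand for 15 genes, rose, 0 fell and 13 did not pass (median 0.88). Their median signal was 5.26, 5.71 and 4.74 in high plants, against 4.46, 4.06 and 4.12 in low plants, and 4.05 to 4.56 in the air and outside plants. Each high plant thus stood above the other 9. The rises were in subunits of complex I and in cox1. The gene nad6 read 3.72, 4.72 and 4.07 in high plants, against 2.33, 2.42 and 2.37 in low plants, at least 3.47-fold higher (adjusted p = 6.05e-04), and nad9 read 7.31, 7.73 and 6.41 against 6.01, 5.17 and 5.34 (3.13-fold). The 2 probe sets of nad5 were both called, at 1.64 and 1.82. The 7 probe sets of nad1 disagreed, with 3 called between 1.39 and 2.16, while the other 4 did not pass and lay between -0.81 and 0.92. The messenger RNA of nad1 is spliced together from separate transcripts. The array targets were made from total RNA, and the sources used here do not say how far organelle transcripts without a long poly(A) tail were copied.

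**Figure D4:**
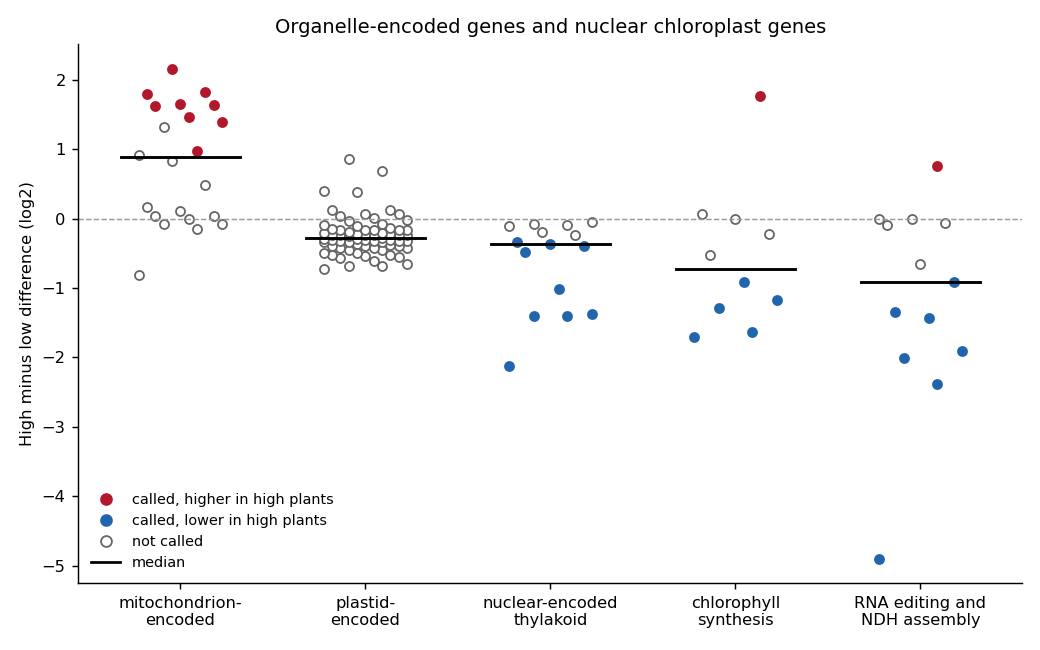
High minus low difference (log2) of every probe set of 5 gene groups, filled where called, with a bar at each group's median. The mitochondrion-encoded group has 9 called rises and a median of 0.88, the 69 plastid-encoded genes have 0 calls and a median of -0.28, and the 3 groups of nuclear genes for the chloroplast have falls down to -4.90.

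A few genes peaked at the low concentration. The rule was a call in low against high, low against air and low against outside, with the low plants above each. Low against air alone had 283 calls (1.24%) and low against outside 1775 (7.8%). The rule was met by 27 probe sets (0.119%), 14 of which are paired with 1 gene. In all 27 the 3 low plants stood above the 9 others, a condition close to the rule itself. In 12 the low mean exceeded each other mean by at least 1. ORA47, a transcription factor of the AP2/ERF family that switches on jasmonate synthesis, read 10.33, 11.15 and 11.27 in low plants, against 4.62, 3.82 and 4.48 in high plants, 4.24, 4.24 and 5.88 in air plants and 4.95, 4.84 and 5.14 outside. Low plants were thus about 6 above all other groups on the log2 scale, and high plants were no higher than plants without added formaldehyde. The high minus low difference was -6.61 ± 0.46, or 97.9-fold lower in high plants (adjusted p = 8.79e-06), the largest fall of any probe set. In the jasmonate list ORA47 and the transcription factor MYC4 fell and MYC3 did not pass, 3 measured of 32. MYC4 was 1.33 lower in high plants (6.74, 6.37 and 6.56, against 8.34, 7.47 and 7.85 in low plants), but its air and outside means, 9.38 and 8.95, lay above both, and its call was lost without some arrays (adjusted p up to 0.0885).

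The other peaks paired with 1 gene had margins of less than 2 and are known by locus, while 13 peaks are not paired with 1 gene and are not named here. AT1G49210 read 4.69, 4.90 and 4.98 in low plants, against 2.92, 3.25 and 2.92 in high plants and 3.10 or less in the air and outside plants, 1.83 above the nearest mean. AT5G51390 read 7.20, 7.51 and 7.24 in low plants, against 5.01, 5.43 and 5.27 in high plants, a margin of 1.19. AT5G50450 read 8.14, 8.47 and 8.45 in low plants, against 4.71, 4.65 and 5.05 in high plants, with air and outside plants between them at 6.59 to 7.42. The high plants were thus the lowest group for this gene, and likewise for AT1G21060 and AT3G49930. AT2G27740, AT3G60200 and AT1G52700 had margins of 1.10, 1.09 and 1.00, AT2G27830 and AT1G33475 of 0.86 and 0.82, and AT5G06770 of 0.70. AT1G52700 read 3.52, 3.09 and 3.43 in low plants. Its means in high, air and outside plants, 2.26, 2.35 and 2.32, lay near the lowest value. With each of the 12 arrays left out in turn, 9 probe sets met the rule every time, among them ORA47, AT1G49210, AT5G51390 and AT1G52700. AT5G50450, AT1G21060, AT3G49930, AT2G27740, AT3G60200, AT2G27830, AT1G33475 and AT5G06770 did not. Without air plant 1, 155 probe sets met the rule.

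**Figure D5:**
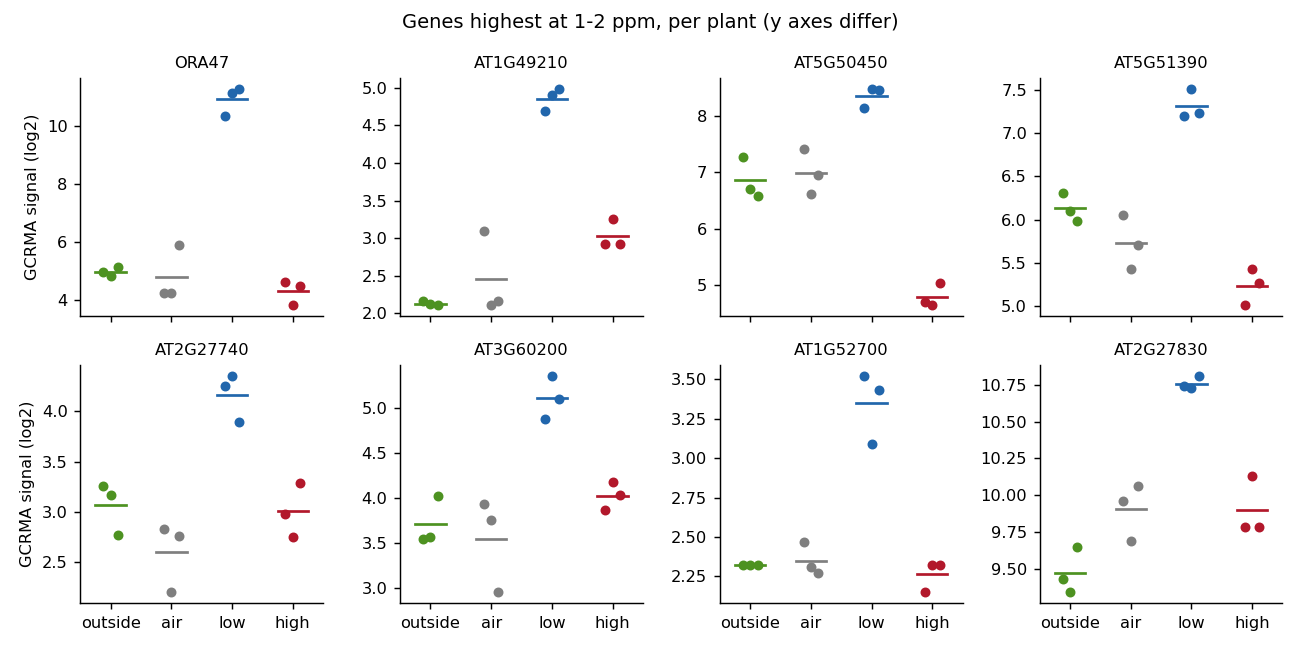
Log2 signal per plant of the 8 genes with the largest margin of the low plants over every other group, from plants outside the chamber to the high plants, with a bar at each mean (y axes differ). The low plants lie above all others in each panel, by 5.94 for ORA47 and by 0.86 to 1.83 for the rest.

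The mirror image, a signal lowest at the low concentration, was met by 29 probe sets (0.127%), 21 of them with 1 gene. AT1G80290 read 4.97, 4.44 and 4.2 in low plants, against 6.38, 6.13 and 6.18 in high plants and 5.91 to 6.18 in air and outside plants, so that high plants matched the plants without added formaldehyde to within 0.5. AT5G44820, AT1G05170, AT1G73400 and AT4G15030 had margins of 1.14, 1.06, 1.03 and 1.01. With arrays left out in turn 2 of the 29 met the rule every time, AT1G80290 and a probe set not named here, and without low plant 2 the count was 3.

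Several groups showed no calls between the concentrations. In the DNA damage list 0 of 4 measured genes were called by limma, and 0 had an unadjusted p under 0.05, with 3 of them near the lowest value and AT1G48360 at 0.08 ± 0.15. Of 5 flavonoid genes 0 were called by limma and 1 had an unadjusted p under 0.05, with DFR, UF3GT and AT5MAT at the lowest value in all 6 plants, AT4G14090 at -0.04 and UGT78D2 at 0.88 (adjusted p = 0.122). GI, a clock gene, had -0.01 ± 0.18. Of 11 auxin early response genes 0 were called by limma, and the 1 with an unadjusted p under 0.05 was IAA29, at -3.48 ± 1.19 (adjusted p = 0.0504), with 2.91, 3.21 and 3.86 in high plants, against 6.74, 7.12 and 6.54 in low plants. Its groups did not overlap, and the large SE came with air plants at 8.06, 2.34 and 3.74. IAA29 was chosen after its values were seen. Unlike these groups, the water deficit list had 2 of 4 measured genes called higher (50%, beside 15.5% of all probe sets). COR15B and COR47 were 2.05-fold and 2.21-fold higher, both calls that were lost without some arrays (adjusted p up to 0.0679 and 0.0747), and COR15A and HIS1-3 did not pass. Guard cell markers fell in 2 of 4 measured (50%, beside 18.3% of all probe sets). FMA was 2.41-fold lower (4.32, 4.08 and 4.15 in high plants, against 4.92, 5.54 and 5.90 in low plants) and AT1G22690 2.97-fold lower (adjusted p = 0.0247, up to 0.0844 with an array left out), while MUTE and SPCH lay at the lowest value. The part of guard cells in the other falls was not tested.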

How the data were processed

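The deposited table holds log2 values that the authors made with GCRMA, per the submitters' processing notes; neither version nor options were stated there, and the log2 scale was read from the values. They were used as deposited. The table's 64 control probe sets were left out of the tests. Of the 22746 others, the supplied annotation paired 13513 with 1 gene, 503 with several and 8730 with none. Names are those of the annotation and of the TAIR10.1 gene table, and coordinates were not used. Sequences were not used here.

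Group means of all 12 arrays were fitted in R 4.3.3 with limma 3.58.1 (mean-variance trend, 8 residual degrees of freedom, two-sided), with Benjamini-Hochberg adjustment over the 22746 probe sets, and calls were made at an adjusted p under 0.05. Errors are SE from this model or SD of 3 plants. An array has no depth, and 3 plants per group limit the precision. The steps were tested on simulated data. Tables and plots used Python 3.11.15, pandas 2.3.3 and matplotlib 3.10.9.

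Genes were named by rule, among probe sets paired with 1 gene. Per direction these were up to 14 called genes by size without overlap (at most 4 with neither symbol nor description). A further 5 per direction were named by level (log2 difference of at least 2, also called and without overlap). To these came 12 peaks and 5 troughs at the low concentration, and up to 4 called members of a group per direction. The contrast, groups, lists and rules were chosen with earlier results of these data known. Replicate numbers did not pair the plants (r of same-numbered deviations 0.116, -0.192 and 0.126).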

Additional observations from a re-analysis of the deposited data

How the results depend on the processing

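The count of called probe sets in high against low, its split by direction and the 2-fold count stayed within 1.5 times of their values with the high and low arrays alone (7282 called), centring on the median (7788), quantile normalization (7767), a mean above 4 (7769), no mean trend (7609), robust variances (7552) and array weights (9144). With a replicate block they were 7276 called, 3370 higher and 3906 lower. Without the air arrays, an alternative chosen after seeing the data, 7784 were called. Testing for a log2 difference over 1 left 1701, 1035 higher and 666 lower, a stricter question. The mean of a gene's probe sets, which tests fewer features, gave 3967, with 1885 higher, 2082 lower and 2089 at least 2-fold. With an array left out the count ran from 6390 (without high plant 2) to 7882 (without air plant 1), with 2991 to 3581 higher, 3344 to 4301 lower and 3695 to 4277 at least 2-fold, and 5844 were called each time. The low-dose counts depended on the settings. Peaks were 27, and 77 with median centring, 74 above a mean of 4, 123 with array weights, 11 with the replicate block, 4 when testing for a log2 difference over 1, 15 over gene means, 52 against air and high alone, 261 against outside and high alone, 12 with a margin of 1, and 14 (without air plant 3) to 155 (without air plant 1) with an array left out. Troughs were 29, and 118 above a mean of 4, 127 with array weights, 10 with the replicate block, 0 when testing for a log2 difference over 1, and 3 (without low plant 2) to 111 (without air plant 1). The cause was not tested. The search for promoter motifs was not run. Of the 243 named probe sets that were called, 44 lost the call without at least 1 array, 30 in another alternative (11 with the replicate block) other than the test for a log2 difference over 1, where 152 lost it, and 0 changed direction under any setting run.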
